A study of Mus musculus with 8 samples.

Results

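The coagulation and fibrinolysis genes are 38 genes of blood clotting, clot limitation and clot dissolution, taken by gene symbol from the 54532 genes of the deposited table. No measured value entered the rule, but the genes were chosen with earlier results of these data known. They comprise 19 procoagulant genes (clotting factors, fibrinogen chains, kallikrein and kininogens), 10 anticoagulant genes, 7 genes of fibrinolysis and 2 receptors for thrombin and trypsin. All 38 reached the minimum mean of 0.1 FPKM (read fragments relative to the length of a gene's exons and to the size of the library) and entered a comparison of 16645 genes. The comparison asked how the livers of mice with less METTL3, an RNA methyltransferase that writes m6A, differed after ischemia and reperfusion (I/R). Livers of 4 METTL3-HKD mice (METTL3 flox/-; Alb-iCre) were set against livers of 4 METTL3-Flox mice (METTL3 flox/flox, from the same litters). All 8 mice went through 1 h of partial warm ischemia, made by clamping branches of the intrahepatic portal vein, and 6 h of reperfusion, and no liver without surgery was analysed here. The floxed exon is exon 4, the Cre is driven by the albumin promoter and so acts in hepatocytes, METTL3-HKD mice are heterozygous, and the age and sex of these mice are not given in the sources used here. The RNA came from whole liver tissue, in which fewer cells of a type and less RNA per cell cannot be told apart.

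Most clotting factors, and most of their inhibitors, are made by hepatocytes and secreted into the plasma as inactive precursors. Tissue factor, exposed on injured or activated cells, binds factor VII and starts a cascade of proteases that ends in thrombin, which turns fibrinogen into fibrin. Antithrombin, the protein C system on endothelium and other inhibitors hold thrombin in check, and plasmin, released from plasminogen by tissue-type or urokinase-type activators, dissolves the clot.

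Mettl3 measured 1.56, 1.39, 1.17 and 1.20 FPKM in livers 1 to 4 of the METTL3-HKD mice and 1.84, 1.16, 1.45 and 1.54 FPKM in the controls. Its log2 fold change was −0.16 with limma (adjusted p = 0.556), so the level of the whole gene did not check the genotype labels. Rebuilt reads on genes lay between 15961479 and 18434488 per METTL3-HKD liver and between 15861245 and 17262991 per METTL3-Flox liver. Each of the 8 hepatocyte markers was detected in every liver, led by Alb, and 0 of 8 passed the test. The 7 neutrophil markers were all higher in METTL3-HKD livers, with a summed level of 329.6 to 1614 FPKM against 12.8 to 44.2 FPKM.

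The 38 genes did not move as a block. In METTL3-HKD livers 5 of them rose (Procr, Plaur, Thbd, F13a1 and F3), 14 fell (Klkb1, F7, Proz, F13b, F9, F12, Serpina10, Hrg, F2, Proc, F2r, Serpinc1, F10 and Plg) and 19 did not pass an adjusted p of 0.05 in limma's moderated test on log2(FPKM + 0.1). Of these calls, 4 of the 5 rises and 3 of the 14 falls (F7, Klkb1 and Proz) passed under all 17 alternative settings given below. Of all genes tested, 9.05% rose and 6.63% fell, against 13.2% and 36.8% of the coagulation and fibrinolysis genes. Among the 3398 genes that averaged 10 FPKM or more, where all 24 plasma protein genes of hepatocytes lie, 8.33% rose and 14.3% fell. The median log2 fold change was −0.38 over the 38 genes, −0.00 over all genes tested and −0.11 over the genes with at least 10 FPKM. With the further demand of a log2 fold change of at least 1, all 5 risers and Klkb1 passed, against 4.70% of all genes upregulated and 1.52% downregulated. The groups were separate, with the METTL3-HKD livers above, in 5 genes (12.7% of all genes) and, with them below, in 14 (9.95% of all genes). The latter 14 include Pros1 and Serpinf2, which did not pass the test, and leave out F10 and Serpina10. For each of these 19 genes the two-sided exact permutation test gave p = 0.0286, the smallest that 4 livers against 4 allow. Any gene without overlap gives this p, so it adds nothing to the separation.

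**Figure D1:**
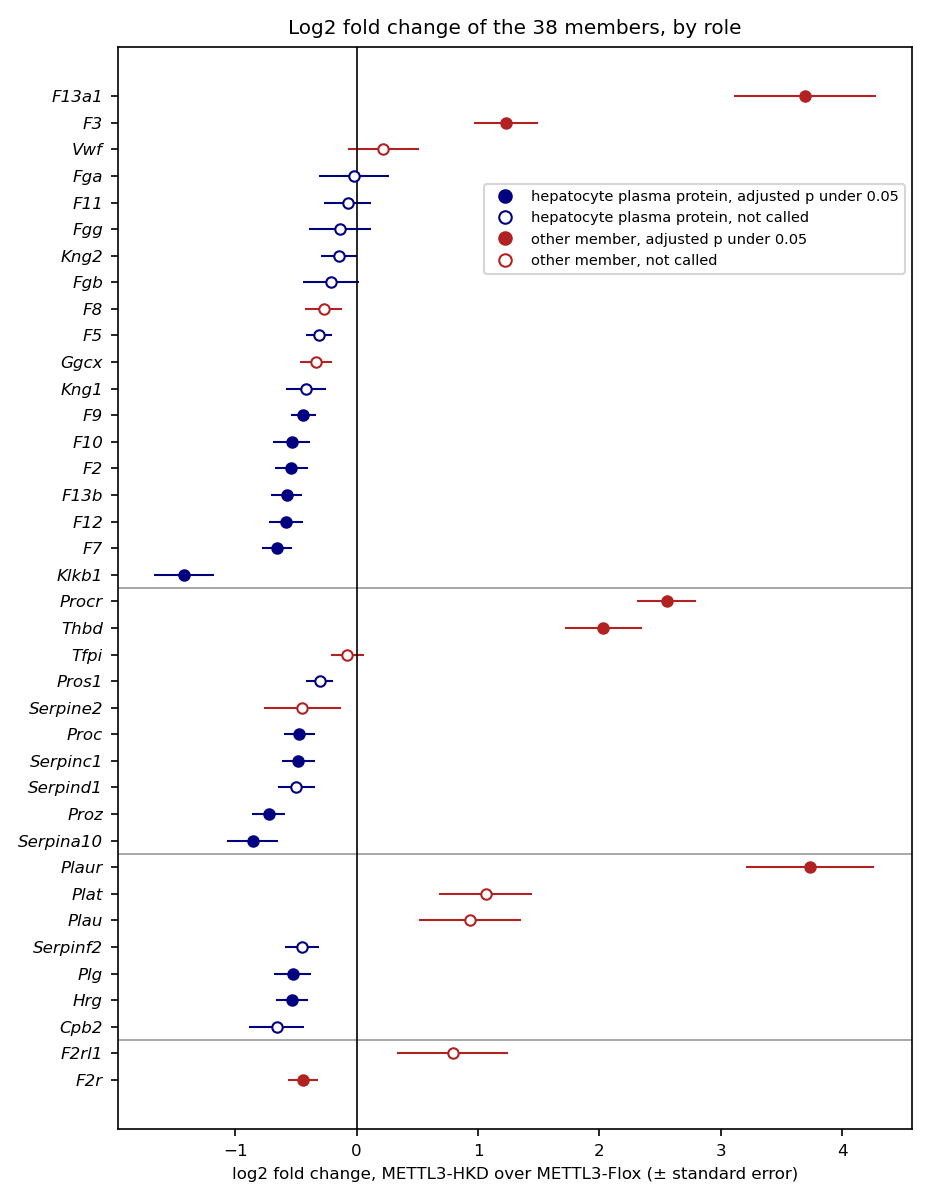
Log2 fold change (METTL3-HKD over METTL3-Flox, horizontal axis) of each of the 38 genes, with its standard error as a bar, ordered by role from procoagulant at the top through anticoagulant and fibrinolytic to the receptors. Filled points passed an adjusted p of 0.05, and with the deposited scaling the 24 blue plasma protein genes all sit left of 0 (19 of 24 with a scaling to the reads on genes), while the 5 filled points right of 0 are red.

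All 5 genes that rose lie outside the plasma proteins of hepatocytes. Of the 24 genes for plasma proteins secreted by hepatocytes, 0 rose, 13 fell and 11 did not pass, and all 24 log2 fold changes were negative (19 of 24 when libraries were scaled to the reads on genes), from −1.42 to −0.02 with a median of −0.49. Of the 14 other genes, which encode membrane receptors, intracellular enzymes or proteins made mainly outside hepatocytes, 5 rose, 1 fell and 8 did not pass. By role, 2 procoagulant genes rose and 7 of 19 fell, 2 anticoagulant genes rose and 4 of 10 fell, and 1 fibrinolytic gene rose and 2 of 7 fell. Among the 7 genes for proteins that need vitamin K to bind calcium (F2, F7, F9, F10, Proc, Pros1 and Proz), 6 fell, with a median log2 fold change of −0.54.

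**Figure D2:**
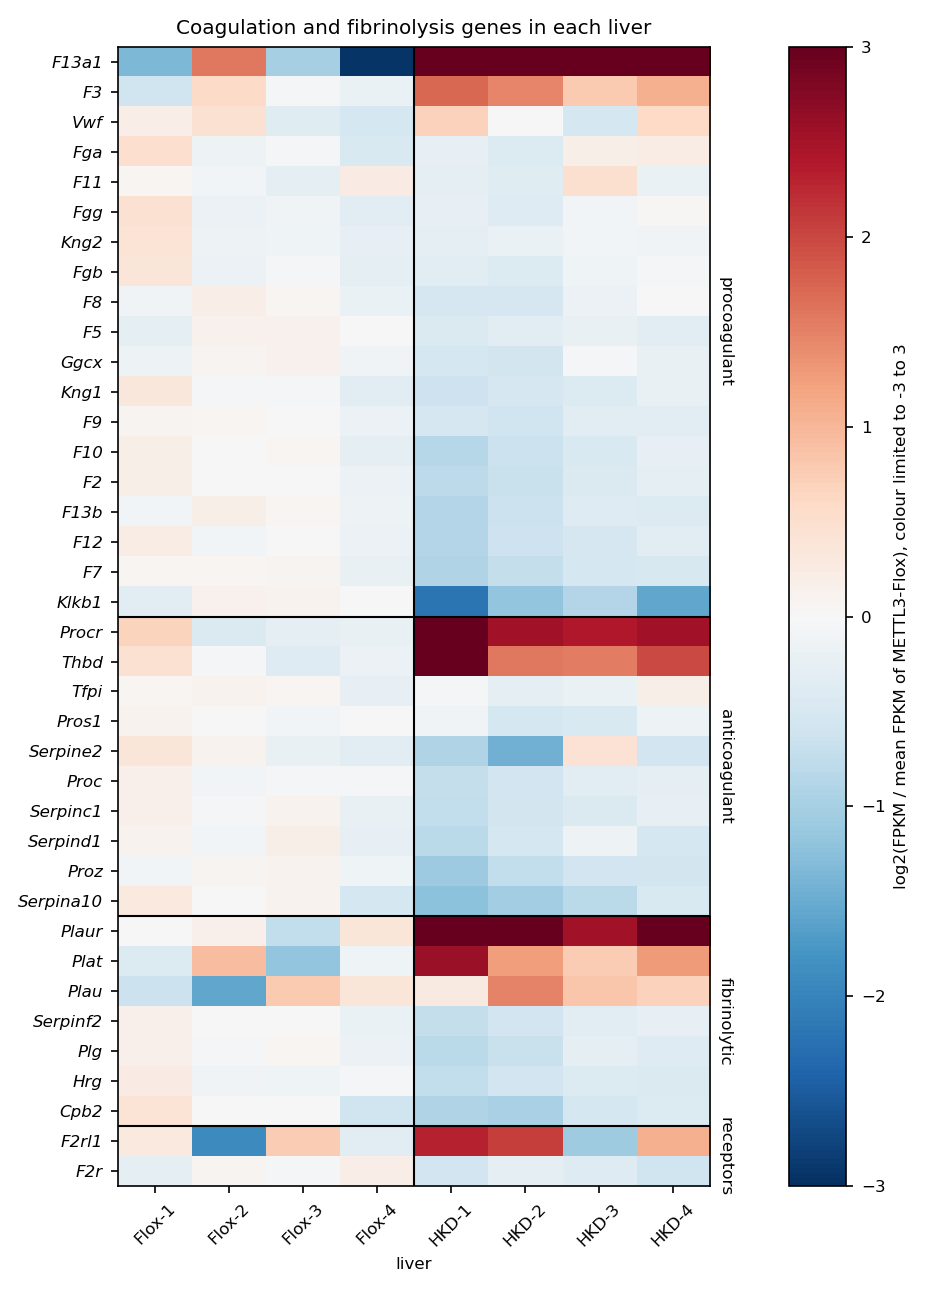
Each row is a gene and each column a liver, and the colour is log2 of FPKM over the mean of the 4 METTL3-Flox livers, limited to the range from −3 to 3. Blue covers most METTL3-HKD cells of the plasma protein genes, and the darkest red cells belong to F13a1, Procr, Thbd and Plaur. Above the METTL3-Flox mean are Fga in METTL3-HKD livers 3 and 4, Fgg in liver 4 and F11 in liver 3.

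Promoter sequence is shown for 6 genes on which the results below turn, with the letters of common factor motifs marked. RefSeq windows of 250 bases before and 50 bases after the start (GRCm38.p6) were found for 29 of the 38 genes. F2rl1, Kng1, Plat, Plau, Plg, Proc, Serpina10, Thbd and Vwf had no match. Each window was searched on both strands for AP-1 (TGANTCA), HNF4 (CAAAGNNCA), an HNF1 core (GTTAAT), EGR (GCGNGGGCG) and the TATA letters (TATAAA) at any position, and capitals mark the matches. The windows of the risers F3, Procr and Plaur each hold an AP-1 match, and they stand first. F7, the riser F3's plasma partner, holds an HNF4 match, and Klkb1 and F11 are neighbouring genes whose levels parted.
F3, chr3:121723287-121723586, plus strand: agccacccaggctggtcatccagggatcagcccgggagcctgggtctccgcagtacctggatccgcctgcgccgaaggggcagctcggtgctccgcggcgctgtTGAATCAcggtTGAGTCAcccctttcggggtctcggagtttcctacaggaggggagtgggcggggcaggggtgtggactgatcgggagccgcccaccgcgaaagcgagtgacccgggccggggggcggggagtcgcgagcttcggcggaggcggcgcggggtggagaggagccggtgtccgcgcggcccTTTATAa
Procr, chr2:155750967-155751266, plus strand: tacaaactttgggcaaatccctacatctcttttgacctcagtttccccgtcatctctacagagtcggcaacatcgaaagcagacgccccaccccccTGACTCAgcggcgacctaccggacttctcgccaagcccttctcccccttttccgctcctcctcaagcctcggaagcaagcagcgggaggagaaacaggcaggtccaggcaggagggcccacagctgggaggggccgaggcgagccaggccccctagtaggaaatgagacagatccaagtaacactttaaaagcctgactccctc
Plaur, chr7:24462233-24462532, plus strand: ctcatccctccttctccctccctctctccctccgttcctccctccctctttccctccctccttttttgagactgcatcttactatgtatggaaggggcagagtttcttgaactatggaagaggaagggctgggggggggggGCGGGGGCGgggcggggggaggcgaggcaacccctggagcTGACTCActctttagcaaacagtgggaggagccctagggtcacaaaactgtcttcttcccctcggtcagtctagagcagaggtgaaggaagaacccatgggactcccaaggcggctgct
F7, chr8:13025784-13026083, plus strand: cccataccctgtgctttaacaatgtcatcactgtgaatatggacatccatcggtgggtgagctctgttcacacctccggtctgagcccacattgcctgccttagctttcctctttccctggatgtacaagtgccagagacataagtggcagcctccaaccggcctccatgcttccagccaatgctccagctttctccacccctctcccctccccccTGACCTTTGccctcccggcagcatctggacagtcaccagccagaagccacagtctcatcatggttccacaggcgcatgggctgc
Klkb1, chr8:45294786-45295085, minus strand: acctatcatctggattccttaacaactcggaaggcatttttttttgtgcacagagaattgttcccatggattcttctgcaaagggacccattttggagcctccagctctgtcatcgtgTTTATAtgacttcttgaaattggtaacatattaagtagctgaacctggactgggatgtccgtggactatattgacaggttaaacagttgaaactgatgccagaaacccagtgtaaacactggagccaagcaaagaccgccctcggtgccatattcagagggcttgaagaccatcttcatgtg
F11, chr8:45261982-45262281, minus strand: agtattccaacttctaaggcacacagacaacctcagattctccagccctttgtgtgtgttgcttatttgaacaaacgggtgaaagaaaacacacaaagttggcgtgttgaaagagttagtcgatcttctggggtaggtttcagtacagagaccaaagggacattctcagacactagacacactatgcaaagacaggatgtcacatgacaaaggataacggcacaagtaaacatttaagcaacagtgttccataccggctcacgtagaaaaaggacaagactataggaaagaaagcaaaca

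An AP-1 match was present in 7 of the 29 windows (F2, F2r, F3, Fgb, Hrg, Plaur and Procr) and in 7.81% of 32851 promoters of the same length. Of the 4 risers with a window, 3 had one, and F13a1 held no such letters. Among the other genes with an AP-1 match, F2, F2r and Hrg fell and Fgb did not pass. In F3 the matches begin 146 and 135 bases before the start, in Procr 154 and in Plaur 69. HNF4 letters were found in 6 of the 20 plasma protein windows (F7, F9, Fga, Kng2, Serpinc1 and Serpind1), in 0 of the 9 others and in 6.36% of all promoters. The HNF1 core was found in 5 of the 20 (F2, F13b, Fga, Fgb and Proz), in 0 of the 9 others and in 7.1% of all promoters. Genes that fell and genes that did not pass stood on both lists. EGR letters occurred in 3 windows (Plaur, Pros1 and Serpine2; 5.55% of all promoters) and TATA letters in 4 (F3, Hrg, Klkb1 and Tfpi; 13.6%). The TATA letters began at base 44 after the start in F3 and at base 1 in Hrg. In Klkb1 and Tfpi they began 132 and 127 bases before it. In F3, Klkb1 and Tfpi they were the reverse complement, TTTATA, so these matches are not placed as TATA boxes. A match is a description of the letters and not of a bound factor.

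Tissue factor and factor VII, the pair that starts the cascade, moved in opposite directions. F3 encodes tissue factor and lies on chromosome 3 from 121723537 to 121735048 (ENSMUSG00000028128). In METTL3-HKD livers 1 to 4 its level was 3.09, 2.59, 1.60 and 1.94 FPKM, and in METTL3-Flox livers 1 to 4, the order used for each gene below, it was 0.613, 1.40, 0.911 and 0.811 FPKM. The groups did not overlap, and METTL3-Flox liver 2 came closest to the METTL3-HKD livers. F3 rose 2.47-fold, from 0.933 ± 0.333 to 2.30 ± 0.666 FPKM (mean ± SD, n = 4), or by 1.23 on the log2 scale (standard error 0.266, adjusted p = 0.0190). The call was lost by a small margin without METTL3-HKD liver 1 (adjusted p = 0.0516), METTL3-HKD liver 2 (0.0515) or METTL3-Flox liver 3 (0.0525). F7 encodes factor VII and lies on chromosome 8 from 13026034 to 13035809 (ENSMUSG00000031443). It had 28.2, 32.0, 36.5 and 37.9 FPKM in METTL3-HKD livers and 55.3, 54.9, 56.4 and 45.2 FPKM in METTL3-Flox livers. Every METTL3-HKD liver was below every METTL3-Flox liver, and the lowest METTL3-Flox value stood apart from the other three. F7 fell to 63.6% of the METTL3-Flox mean (log2 fold change −0.66, standard error 0.120, adjusted p = 0.0113) and passed under all 17 alternatives.

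**Figure D3:**
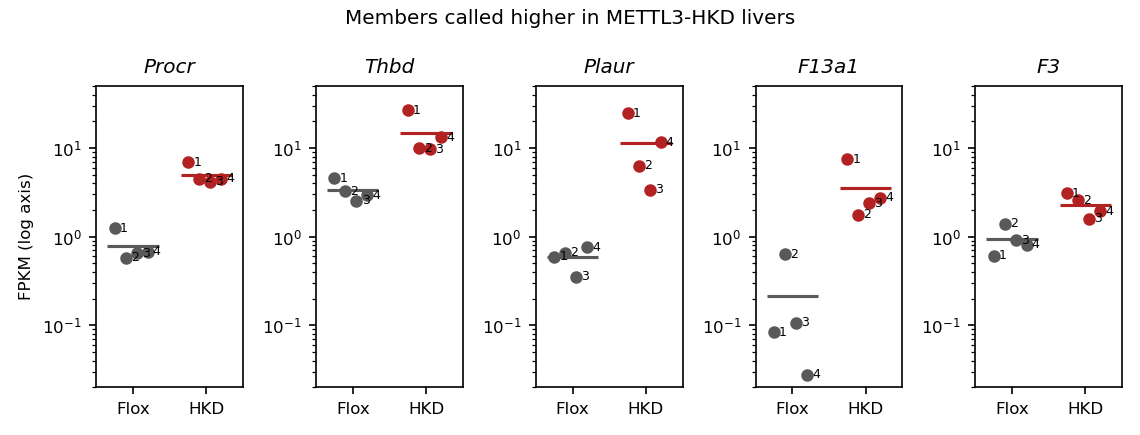
FPKM on a log axis of the 5 genes that rose, with 1 point per liver, the liver's number beside it and a line at the mean of the 4 livers of a group. METTL3-HKD liver 1 is the highest of its group in every panel, and METTL3-Flox liver 2 is the highest control for F13a1 (0.634 FPKM) and F3 (1.40 FPKM).

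The contact factors, which start clotting on charged surfaces, held the steepest fall. Klkb1 encodes plasma prekallikrein, which activates factor XII and frees bradykinin from kininogen, and lies on chromosome 8 from 45266689 to 45294859 (ENSMUSG00000109764). It had 3.45, 6.87, 8.51 and 5.34 FPKM in METTL3-HKD livers and 12.7, 17.2, 16.9 and 15.9 FPKM in METTL3-Flox livers. The highest METTL3-HKD liver stayed below the lowest METTL3-Flox liver, and METTL3-HKD liver 1 was the lowest of all. Klkb1 fell to 38.6% of the METTL3-Flox mean (log2 fold change −1.42, 95% interval −1.99 to −0.86, adjusted p = 0.00989) and passed under all 17 alternatives. Its exons share 2267 bases (43.2%) with Gm45753 on the same strand, listed at 0.00737 FPKM on average, so the division of reads between them is uncertain. F12, which encodes factor XII, had 141, 169, 183 and 207 FPKM in METTL3-HKD livers and 303, 247, 262 and 231 FPKM in METTL3-Flox livers. Its groups did not overlap, and it fell to 67.1% (log2 fold change −0.58, adjusted p = 0.0281). F11, which encodes factor XI, ranged from 23.9 to 42.9 FPKM in METTL3-HKD livers and from 25.4 to 36.4 FPKM in METTL3-Flox livers. Its log2 fold change of −0.07 had a 95% interval of −0.51 to 0.36. The kininogens are the substrates of kallikrein. Kng1 had a log2 fold change of −0.42 (adjusted p = 0.120) and Kng2 of −0.15 (adjusted p = 0.530), with uncertain values since they are close paralogs.

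Among the factors that lead to thrombin, F9, F10 and F2 fell and F5 and F8 did not pass. F9, which encodes factor IX, had 59.1, 55.3, 67.3 and 67.2 FPKM in METTL3-HKD livers and 89.7, 88.5, 84.8 and 74.1 FPKM in METTL3-Flox livers. The groups did not overlap, and F9 fell to 73.8% of the METTL3-Flox mean (log2 fold change −0.44, adjusted p = 0.0256). F10, which encodes factor X, had 89.3, 103, 118 and 136 FPKM in METTL3-HKD livers and 182, 162, 169 and 131 FPKM in METTL3-Flox livers. Here the groups overlapped, since METTL3-HKD liver 4 lay above METTL3-Flox liver 4, and the log2 fold change was −0.54 (adjusted p = 0.0463). F10 lost this call under 11 of the 17 alternatives. F2 encodes prothrombin, the precursor of thrombin. It had 225, 244, 284 and 315 FPKM in METTL3-HKD livers and 435, 382, 383 and 344 FPKM in METTL3-Flox livers. All METTL3-HKD livers lay below all METTL3-Flox livers, and F2 fell to 69.2% (log2 fold change −0.54, standard error 0.137, adjusted p = 0.0323). The cofactors F5 (log2 fold change −0.31, adjusted p = 0.0848) and F8 (−0.27, adjusted p = 0.256) did not pass, and neither did Ggcx, the carboxylase that modifies the vitamin K-dependent factors (−0.33, adjusted p = 0.110). F8 and Ggcx were counted outside the plasma proteins of hepatocytes.

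Fibrinogen, the substrate of thrombin, is the most abundant of these transcripts, and its 3 chains did not pass the test. Fga had 5699.5, 5134, 7671 and 7868 FPKM in METTL3-HKD livers and 9559.5, 6056, 6503 and 4953 FPKM in METTL3-Flox livers. Fgb had 4336, 4047, 4920.4 and 5273 FPKM in METTL3-HKD livers and 7025, 4828, 5319.8 and 4508 FPKM in METTL3-Flox livers. Fgg had 5478, 5013, 6137 and 6745 FPKM in METTL3-HKD livers and 9042, 5798, 6102 and 5227 FPKM in METTL3-Flox livers. METTL3-Flox liver 1 was the highest for Fga, Fgb and Fgg, and the groups overlapped in each. The log2 fold changes were −0.02 for Fga (95% interval −0.67 to 0.63), −0.21 for Fgb (95% interval −0.73 to 0.31) and −0.14 for Fgg (95% interval −0.72 to 0.44), so a fall as large as that of F2 lies inside all 3 intervals. Within a liver, the ratio of F2 to Fgb was lower in every METTL3-HKD liver, with a log2 difference of −0.33 (exact permutation test, two-sided, p = 0.0286, n = 4 livers a group). The ratios of F7 and Plg to Fgb overlapped between the groups, with log2 differences of −0.45 and −0.32 (exact permutation test, p = 0.0571 for each, n = 4).

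The subunits of factor XIII, which crosslinks fibrin, parted. F13a1 encodes the catalytic A subunit, made mainly by macrophages and megakaryocytes, and lies on chromosome 13 from 36867178 to 37050244 (ENSMUSG00000039109). It had 7.43, 1.77, 2.37 and 2.76 FPKM in METTL3-HKD livers and 0.0835, 0.634, 0.107 and 0.0277 FPKM in METTL3-Flox livers, on 220 to 1007 and 3 to 69 rebuilt reads. The groups did not overlap, and METTL3-HKD liver 1 was by far the highest. F13a1 rose 16.8-fold, from 0.213 ± 0.282 to 3.58 ± 2.60 FPKM (log2 fold change 3.69, 95% interval 2.37 to 5.02, adjusted p = 0.00739). Single livers decided the size of this rise, which was 10.8-fold without METTL3-HKD liver 1 and 49.2-fold without METTL3-Flox liver 2, and the log2 fold change was 1.80 with a pseudocount of 1 FPKM and 4.67 with voom on the rebuilt reads. F13b encodes the carrier B subunit, which hepatocytes secrete. It had 38, 44.4, 53.1 and 52.2 FPKM in METTL3-HKD livers and 65.5, 78.5, 72.4 and 62.5 FPKM in METTL3-Flox livers. All METTL3-HKD livers lay below, and F13b fell to 67.3% of the METTL3-Flox mean (log2 fold change −0.58, adjusted p = 0.0212). Vwf, the von Willebrand factor of endothelium and platelets, ranged from 0.499 to 1.16 FPKM over the 8 livers and did not pass (log2 fold change 0.22, adjusted p = 0.645).

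The protein C pathway, in which thrombin bound to thrombomodulin activates protein C, rose at its receptors and fell at its plasma protein. Procr encodes the endothelial protein C receptor and lies on chromosome 2 from 155751117 to 155755471 (ENSMUSG00000027611). It had 6.88, 4.50, 4.17 and 4.50 FPKM in METTL3-HKD livers and 1.25, 0.579, 0.648 and 0.673 FPKM in METTL3-Flox livers. The lowest METTL3-HKD liver lay well above the highest METTL3-Flox liver, and liver 1 was the highest of each group. Procr rose 6.37-fold (log2 fold change 2.56, 95% interval 2.0 to 3.11, adjusted p = 0.00157), which was the smallest adjusted p of the 38 genes, and the log2 fold change was 1.74 with a pseudocount of 1 FPKM. Thbd encodes thrombomodulin and lies on chromosome 2 from 148404466 to 148408188 (ENSMUSG00000074743). It had 26.5, 10, 9.70 and 13.2 FPKM in METTL3-HKD livers and 4.57, 3.24, 2.54 and 2.94 FPKM in METTL3-Flox livers. The groups did not overlap, and Thbd rose 4.47-fold (log2 fold change 2.03, 95% interval 1.32 to 2.75, adjusted p = 0.00707). Proc encodes protein C itself. It had 155, 171, 202 and 213 FPKM in METTL3-HKD livers and 286, 241, 251 and 248 FPKM in METTL3-Flox livers. Each METTL3-HKD liver lay below each METTL3-Flox liver, and Proc fell to 72.4% (log2 fold change −0.47, adjusted p = 0.0377). Proc lost this call under 10 of the 17 alternatives. Pros1, which encodes its cofactor protein S, had 23.7, 17.8, 18.5 and 22.8 FPKM in METTL3-HKD livers and 27.2, 25.3, 23.9 and 25.3 FPKM in METTL3-Flox livers. Its groups did not overlap either, but it did not pass (log2 fold change −0.31, adjusted p = 0.0939).

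Within a liver, Procr and Thbd were also set against Pecam1, a marker of endothelium. The ratio of Procr to Pecam1 was higher in every METTL3-HKD liver than in any METTL3-Flox liver, by 2.32 on the log2 scale, and that of Thbd to Pecam1 by 1.67 (exact permutation test, two-sided, p = 0.0286 for each, n = 4 livers a group). Pecam1 itself was also higher in METTL3-HKD livers without overlap (log2 fold change 0.39), but did not pass limma's test (adjusted p = 0.0729). It ran from 4.70 to 7.998 FPKM over the 8 livers. This spread was smaller, in proportion, than the gap between the groups for Procr or Thbd. The ratios to Pecam1 therefore could not overlap, and their p adds no separate result. Ratios to other endothelial markers were not computed. The ratio of Thbd to Proc was higher by 2.54 and that of Procr to Proc by 3.19. The ratios to Proc could not overlap either, since Thbd and Procr were higher and Proc lower without overlap, so they add no separate result. The 5 vascular endothelial markers had summed levels of 25.1 to 33.1 FPKM in METTL3-HKD livers and 23.5 to 29.8 FPKM in METTL3-Flox livers, and 0 of 5 passed the test. Of the 6 sinusoidal endothelial markers, 2 fell, with sums of 49.6 to 54.4 FPKM against 57.0 to 67.5 FPKM.

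The inhibitors secreted by hepatocytes mostly had lower levels. Serpinc1 encodes antithrombin, the main plasma inhibitor of thrombin and factor Xa. It had 114, 130.4, 142 and 162 FPKM in METTL3-HKD livers and 214, 183, 205 and 163 FPKM in METTL3-Flox livers. The groups were separated by a narrow gap, and Serpinc1 fell to 71.9% (log2 fold change −0.48, adjusted p = 0.0456), a call lost under 13 of the 17 alternatives. It shares 34.4% of its exon bases with Zbtb37 on the opposite strand, a gene of 0.375 FPKM. Serpina10 encodes the protein Z-dependent protease inhibitor, which blocks factor Xa together with protein Z. It had 101, 116, 135 and 174 FPKM in METTL3-HKD livers and 292, 241, 257 and 166 FPKM in METTL3-Flox livers. METTL3-HKD liver 4 lay above METTL3-Flox liver 4, so the groups overlapped, and the log2 fold change was −0.86 (adjusted p = 0.0292). Proz, which encodes protein Z, had 30.2, 38.8, 43.5 and 44.1 FPKM in METTL3-HKD livers and 60.6, 68.5, 69.7 and 58.4 FPKM in METTL3-Flox livers. Its groups did not overlap, it fell to 60.9% (log2 fold change −0.73, adjusted p = 0.0113), and it passed under all 17 alternatives. Serpind1, which encodes heparin cofactor II, missed the threshold (log2 fold change −0.50, adjusted p = 0.0595). Of the inhibitors made by other cells, Tfpi (log2 fold change −0.08, 95% interval −0.39 to 0.24) and Serpine2 (−0.45, 95% interval −1.17 to 0.27) did not pass.

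In fibrinolysis, the receptor of urokinase rose and plasminogen fell. Plaur encodes the urokinase receptor, which gathers urokinase on the surface of neutrophils, monocytes and other cells, and lies on chromosome 7 from 24462484 to 24475968 (ENSMUSG00000046223). It had 24.6, 6.33, 3.38 and 11.7 FPKM in METTL3-HKD livers and 0.592, 0.662, 0.352 and 0.760 FPKM in METTL3-Flox livers. The groups did not overlap, and METTL3-HKD liver 1 was the highest and liver 3 the lowest of its group. Plaur rose 19.5-fold, from 0.591 ± 0.174 to 11.5 ± 9.39 FPKM (log2 fold change 3.74, 95% interval 2.55 to 4.93, adjusted p = 0.00499). The rise was 12.1-fold without METTL3-HKD liver 1, and the log2 fold change was 2.67 with a pseudocount of 1 FPKM. The activators themselves did not pass and stayed at low levels. Plat, tissue-type plasminogen activator, had a log2 fold change of 1.06 (adjusted p = 0.0894), with 23 to 91 rebuilt reads per METTL3-HKD liver and 5 to 23 per METTL3-Flox liver. Plau, urokinase, had 0.93 (adjusted p = 0.166).

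Plg encodes plasminogen. It had 370.2, 408, 540.0 and 495 FPKM in METTL3-HKD livers and 719, 633, 674 and 571 FPKM in METTL3-Flox livers. The groups did not overlap, and Plg fell to 69.9% (log2 fold change −0.53, adjusted p = 0.0482), with 11.3% of its exon bases shared with Slc22a3 on the opposite strand. Plg lost this call under 12 of the 17 alternatives. Hrg encodes histidine-rich glycoprotein, a plasma protein that binds plasminogen and heparin. It had 315, 355, 397 and 395 FPKM in METTL3-HKD livers and 623, 494, 486 and 514 FPKM in METTL3-Flox livers. Its groups did not overlap, and Hrg fell to 69.1% (log2 fold change −0.53, adjusted p = 0.0300). Serpinf2, which encodes the plasmin inhibitor alpha-2-antiplasmin, had 276, 304, 362 and 382 FPKM in METTL3-HKD livers and 501, 453, 456 and 392 FPKM in METTL3-Flox livers. It did not pass although its groups did not overlap (log2 fold change −0.45, adjusted p = 0.0595). Cpb2, which encodes the thrombin-activated carboxypeptidase that protects fibrin, did not pass either (log2 fold change −0.66, adjusted p = 0.0765).

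Of the receptors for these proteases, F2r, the thrombin receptor PAR1, had 9.05, 11.2, 10.4 and 8.92 FPKM in METTL3-HKD livers and 11.2, 14.2, 13.1 and 15.5 FPKM in METTL3-Flox livers. METTL3-HKD liver 2 and METTL3-Flox liver 1 nearly met, and F2r fell to 73.1% (log2 fold change −0.45, adjusted p = 0.0416), a call lost under 12 of the 17 alternatives. F2rl1, the trypsin receptor PAR2, ranged from 0.0226 to 0.417 FPKM over the 8 livers, on 1 to 23 rebuilt reads, and did not pass (log2 fold change 0.79, adjusted p = 0.266).

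Of the 5 rises, 4 held under every alternative, as did 3 of the 14 falls. These 7 genes, which passed under each of 17 alternatives, are Procr, Thbd, Plaur, F13a1, Klkb1, F7 and Proz. The number that fell was 14, and it was 4 without METTL3-HKD liver 1, 3 without METTL3-HKD liver 2, 9 without METTL3-Flox liver 1, 3 without METTL3-Flox liver 2 and 3 without METTL3-Flox liver 3, while it stayed between 10 and 13 without any other liver. The share of all genes tested that fell moved as well, from 6.63% with all livers. It was 2.87% and 3.44% without METTL3-HKD livers 1 and 2. Without METTL3-Flox livers 1, 2 and 3 it was 6.33%, 3.40% and 2.13%. It lay between 3.35% and 6.89% without any other liver. The other 11 genes that fell each lost the call without METTL3-HKD liver 2, without METTL3-Flox liver 2 and without METTL3-Flox liver 3, and all of them but F13b lost it without METTL3-HKD liver 1. F2, F10, Proc, Serpina10, Serpinc1 and Plg also lost it without METTL3-Flox liver 1. Proc, Serpinc1, Plg, Hrg and F2r lost it without METTL3-Flox liver 4, F10, Serpinc1 and F2r without METTL3-HKD liver 3, and Plg and F2r without METTL3-HKD liver 4. The highest adjusted p with a liver left out lay between 0.0627 for F13b and 0.119 for Plg, and the log2 fold changes of the 11 genes kept their sign.

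The scaling between libraries also bears on the falls. The deposited FPKM had been scaled between libraries, and in METTL3-HKD livers that scaling gave lower values than a scaling to the reads on genes. With each library scaled to its reads on genes, the median over all genes tested became 0.20 on the log2 scale, 13.9% of all genes rose and 2.24% fell. The same 5 genes rose, 6 fell (F2, F7, F12, Klkb1, Proz and Serpina10), and 19 of the 24 plasma protein genes had a negative log2 fold change, with a median of −0.27. The median of the plasma protein genes lay below that of all genes under both scalings, but this adds no separate result. The change of scaling raised each of the 24 genes by 0.21 to 0.22 and the median of all genes from −0.0028 to 0.20. It therefore left the gap between them almost as it was. With Alb set equal in all livers, a choice made after seeing the data, 11 genes fell and 23 of 24 plasma protein genes had a negative log2 fold change. Of all genes tested, 3.36% fell in that setting. The ratio of a plasma protein gene to Alb within a liver needs no scaling between libraries. It was lower in every METTL3-HKD liver than in any METTL3-Flox liver for 17 of the 24 genes and higher for 0, against 7.64% and 7.92% of all genes tested. Its median log2 difference was −0.46, and Alb itself had a log2 fold change of −0.03 (adjusted p = 0.961).

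Alb was the least changed of the 8 hepatocyte markers, and the result depended on that choice. All 8 markers had negative log2 fold changes, from −0.79 for Cps1 through −0.62 for Hpd and −0.47 for Apoa1 to −0.03 for Alb, with a median of −0.37 beside −0.49 for the 24 plasma protein genes, although 0 of 8 passed the test. The ratios of the 24 genes to each of the other 7 markers were computed after the values were seen and were not tested. Against Apob and against Ass1, 2 of 24 genes were lower without overlap, with median log2 differences of −0.37 and −0.38. Against Ttr 1 gene was lower and against Cyp2e1 0, with medians of −0.13 and −0.11. Against Apoa1 the median was −0.02, and against Hpd and Cps1 it was positive, at 0.13 and 0.30, with 0 genes lower without overlap against any of these 3. The size and sign of the median difference thus depended on the marker, and hepatocyte transcripts outside the 8 markers were not compared.

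**Figure D4:**
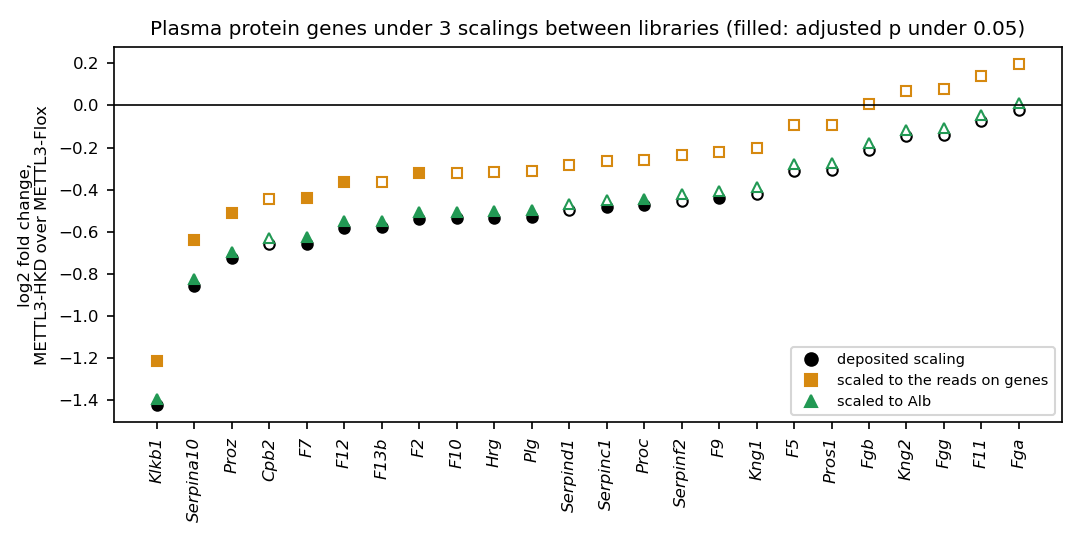
Log2 fold change (vertical axis) of the 24 plasma protein genes under the deposited scaling, a scaling to the reads on genes and a scaling to Alb, with filled symbols for an adjusted p under 0.05. The squares of the scaling to reads lie 0.21 to 0.22 above the circles for every gene, and only Klkb1, Serpina10, Proz, F7, F12 and F2 are filled among them.

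Several of the genes are neighbours, and neighbours did not always move together. F11 and Klkb1 are both on the minus strand of chromosome 8, 4657 bases apart, with no coding gene between them. Klkb1 fell and F11 did not pass, and the ratio of Klkb1 to F11 was lower in every METTL3-HKD liver by 1.37 on the log2 scale (exact permutation test, two-sided, p = 0.0286, n = 4 livers a group). F7, F10 and Proz follow one another on the plus strand of the same chromosome, with gaps of 1498 and 4237 bases, and all 3 fell. Fgg, Fga and Fgb on chromosome 3, with gaps of 11026 and 6513 bases, all failed to pass. Hrg, Kng2 and Kng1 on chromosome 16 had log2 fold changes of −0.53, −0.15 and −0.42, and the ratio of Kng2 to Kng1 was higher by 0.27 in METTL3-HKD livers with no overlap (exact permutation test, p = 0.0286).

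**Figure D5:**
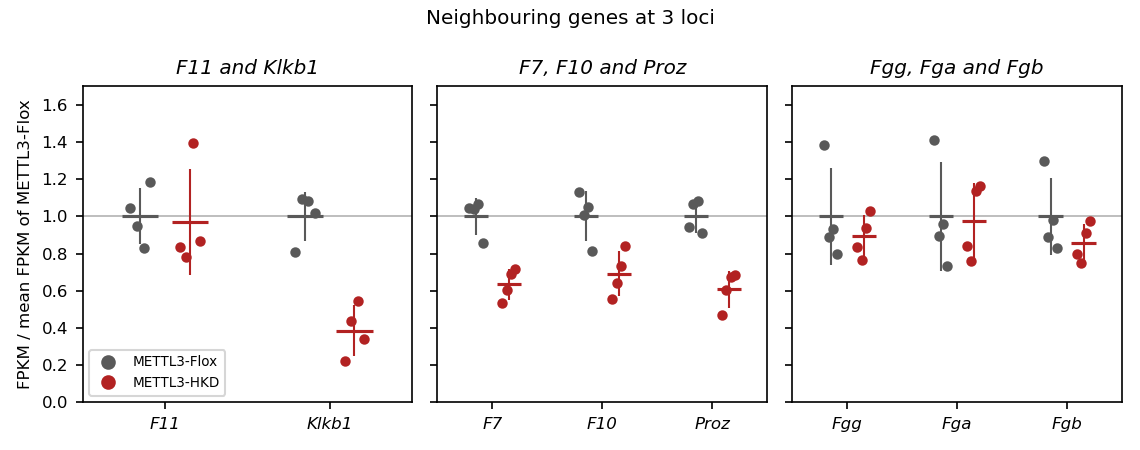
FPKM divided by the METTL3-Flox mean of the gene (vertical axis) at 3 loci, with 1 point per liver and the mean ± SD of the 4 livers of a group. The METTL3-HKD points of Klkb1 lie under all its METTL3-Flox points while those of F11 spread around 1, and F7 and Proz are separated while the fibrinogen genes overlap.

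Markers of some cell types rose in METTL3-HKD livers and those of others fell. METTL3-HKD liver 1 had the highest neutrophil sum (1614 FPKM) and the highest Plaur, F13a1, Thbd, Procr and F3. Its erythroid, cholangiocyte and platelet sums were also the highest (570, 13.9 and 10.5 FPKM). Among the controls, METTL3-Flox liver 1 had the highest neutrophil sum (44.2 FPKM), the highest Procr and Thbd and the lowest F3. Plaur was highest there in METTL3-Flox liver 4, and F13a1 and F3 in METTL3-Flox liver 2. The 7 neutrophil markers all rose, and so did 3 of 6 monocyte markers (Chil3, Ccr2 and Vcan, log2 fold changes 4.19, 2.26 and 2.29). The monocyte sums overlapped (250.2 to 328.4 FPKM against 272.6 to 311.9 FPKM). Fn1, which did not pass, made up most of each sum (190 to 287 FPKM against 252 to 298 FPKM). The sums therefore say little of the other monocyte markers. The part of these cells in the rise of Plaur and F13a1 was not tested. The ratio of Plaur to S100a9, an abundant neutrophil transcript, overlapped between the groups (log2 difference −0.73, exact permutation test, two-sided, p = 0.0571, n = 4 livers a group). Against the 6 neutrophil markers above 0 in all livers, computed after the values were seen, the log2 difference of Plaur ran from −0.97 for Retnlg to 0.72 for Csf3r, with 5 negative and 1 positive, and the groups overlapped for all 6. The ratio of F13a1 to Chil3, the monocyte marker that rose most, also overlapped (log2 difference 0.48, exact permutation test, p = 0.571, n = 4). Against the 6 monocyte markers the log2 difference of F13a1 was positive throughout, from 0.48 for Chil3 and 0.97 for Vcan to 5.02 for Fn1, without overlap for Fn1 and Plac8. Neither Fn1 nor Plac8 itself passed the test. Platelet markers were low, with sums of 3.29 to 10.5 FPKM against 1.17 to 3.35 FPKM, Gp1bb listed at 0 in all 8 livers and 1 of the 4 tested markers higher. Kupffer cell markers fell in 4 of 5 cases, with sums of 59.1 to 132 FPKM against 134 to 336 FPKM. Of the other lists, 3 of 4 erythroid markers rose (sums of 178 to 570 FPKM against 46.6 to 104 FPKM), 3 of 4 cholangiocyte markers rose and 2 of 6 stellate cell markers fell. The remaining erythroid marker, Alas2, had a negative log2 fold change and did not pass (−0.98, adjusted p = 0.103). Hepatocyte markers had sums of 22330 to 32830 FPKM against 29010 to 33070 FPKM, and the lowest of these were METTL3-HKD livers 1 and 2. The part of hepatocyte content in the falls of the plasma protein genes was not tested.

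A further list of 21 genes that act beside the coagulation and fibrinolysis genes gave 3 that rose, 5 that fell and 11 that did not pass, while F2rl2 and F2rl3 were below the minimum mean, beside 9.05% of all genes that rose and 6.63% that fell. These calls were not firm, since over the alternatives from 2 to 4 of the genes rose and from 0 to 5 fell, with 3 lower under a scaling to the reads on genes and 2 lower under a scaling to Alb or without a minimum mean. Over the same alternatives, 4.13% to 13.9% of all genes tested rose and 2.13% to 10.8% fell. With a liver left out, 1 was lower without METTL3-Flox liver 3, 2 without METTL3-HKD liver 1 or 4, and 3 without METTL3-HKD liver 2, METTL3-Flox liver 2 or METTL3-Flox liver 4. Anxa2, which binds plasminogen and its activator at cell surfaces, rose from 3.83 ± 0.879 to 23.1 ± 9.30 FPKM (log2 fold change 2.51, adjusted p = 0.00190). Fgl2, a membrane protein that can cleave prothrombin, rose from 1.72 ± 0.0885 to 5.56 ± 2.54 FPKM (log2 fold change 1.53, adjusted p = 0.0108). Serpinb2, an inhibitor of urokinase, had 5.21, 3.23, 0.377 and 5.25 FPKM in METTL3-HKD livers against 0, 0.975, 0 and 0 FPKM in METTL3-Flox livers. It was listed at 0 in 3 METTL3-Flox livers, and its groups overlapped (adjusted p = 0.0327). Without METTL3-Flox liver 2 its controls were all at 0, which leaves no fold. A2m, a broad protease inhibitor, fell from 10.9 ± 6.86 to 2.06 ± 1.14 FPKM (log2 fold change −2.23, adjusted p = 0.0264). Vkorc1, the reductase that recycles vitamin K, fell from 10.9 ± 2.80 to 6.16 ± 1.60 FPKM (log2 fold change −0.83, adjusted p = 0.0385). The log2 fold change of Adamts13, the protease of von Willebrand factor, was −0.80 (adjusted p = 0.0305). That of Serping1, the C1 inhibitor that also blocks kallikrein, was −0.72 (adjusted p = 0.0134), and that of the fibrinogen-like Fgl1 was −0.70 (adjusted p = 0.0250), so all 3 fell. The median over the 19 tested was −0.27.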

How the data were processed

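Total RNA of 8 livers was made into libraries with a SMARTer mRNA-Seq kit per the labels, and the authors deposited 1 table of FPKM and gene length for 54532 genes. The submitters' processing notes name the build GRCm38 (mm10), and the aligner, counting, annotation and strand setting are not given in the sources used here. FPKM times gene length and an effective library size per liver gave whole reads (within 0.02 of a read, plus 1e-05 of the value) for 100% of the non-zero values in each library. The effective library size was 1.01 to 1.17 times the reads on genes in METTL3-HKD livers and 0.84 to 1.01 times in METTL3-Flox livers. The deposited FPKM were therefore scaled between libraries by something other than the reads on genes. These rebuilt reads served for depth and for 2 alternatives.

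Genes averaging 0.1 FPKM or more, 16645 in number, were compared on log2(FPKM + 0.1) with limma 3.58.1 (lmFit, eBayes with a mean-variance trend, two-sided) in R 4.3.3. P-values were adjusted over these genes after Benjamini and Hochberg. Fold changes on this scale understate the change of low genes. The method was tested on simulated data. Intervals are at 95%. Single values and 41 ratios within a liver were compared by an exact permutation test over all 70 arrangements (scipy 1.17.1, Python 3.11.15), with p-values as they stand. Ratios to every marker of the hepatocyte, neutrophil and monocyte lists were added after the values were seen, with no test. Promoters came from RefSeq (GRCm38.p6), and the first start was used for 2 genes with several.

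Replicate numbers did not pair the livers. The labels name separate mice and no batch. The genes, their grouping by role and place of synthesis, the further pathway genes and the cell type markers were chosen with earlier results of these data known. Values in every liver are given for genes that passed the test or did not overlap and for the 3 of the highest level.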

Additional observations from a re-analysis of the deposited data

Results flagged for a closer look

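Within a group of 4 livers, a highest or lowest liver was marked where its gap to the next passed Dixon's critical value at 95%. Chance marks about 1 in 20 groups, or 3.8 of the 76 groups of the 38 genes, and 7 were marked. Procr was marked in each group, with 6.88 FPKM in METTL3-HKD liver 1 (next 4.50 FPKM) and 1.25 FPKM in METTL3-Flox liver 1 (next 0.673 FPKM). F13a1 had 0.634 FPKM in METTL3-Flox liver 2, where the next control had 0.107 FPKM. Kng2 had 172 FPKM in METTL3-Flox liver 1 (next 118 FPKM). F11 had 42.9 FPKM in METTL3-HKD liver 3 (next 26.7 FPKM). METTL3-Flox liver 4 was the lowest control for F7, with 45.2 FPKM (next 54.9 FPKM), and for Tfpi, with 1.54 FPKM (next 1.90 FPKM).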

How the results depend on the processing

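Over 17 alternatives, 8 of which left out a liver, the number of genes that rose was 5 or, without 1 of 3 livers, 4, since F3 missed the threshold there. The number that fell was 14, and it moved to 6 without a minimum mean, 9 without the mean-variance trend, 6 with a scaling to the reads on genes and from 3 to 13 with a liver left out. It was 16 with voom on the rebuilt reads. With the replicate number as a block, 5 genes rose and 4 fell, and 3 of the other pathway genes rose and 0 fell. The share of all genes tested that fell was 6.63% in the main fit. It was 2.64% without a minimum mean, 4.48% without the trend and 2.24% with the reads on genes. With a liver left out it was 2.13% to 6.89%, with voom 7.22% and with the block 3.88%. The numbers share no litter or day in the labels, and the correlations of same-numbered livers lay between −0.08 and 0.07. Signs turned for 6 genes that passed under no alternative. Fga was at 0.13 with array quality weights, 0.20 with the reads on genes and 0.0111 with Alb, and from −0.16 to 0.16 with a liver left out, of which 0.04 and 0.09 came without METTL3-HKD livers 1 and 2 and 0.16 without METTL3-Flox liver 1. F11 was at 0.14 with the reads on genes and from −0.26 to 0.0167 with a liver left out (0.0103 without METTL3-Flox liver 4). Fgg was at 0.0771 with the reads on genes and from −0.24 to 0.0274 with a liver left out. Kng2 was at 0.0697 and from −0.22 to 0.0011 in the same settings. Fgb and Tfpi were at 0.007 and 0.13 with the reads on genes. Apart from the scaling, and from the smaller number of livers or the other number of genes tested, the cause of these moves was not tested. F13a1, Plat, Plau and F2rl1 rest on fewer than 10 rebuilt reads in some livers, which limits their values.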
